A study of Mus musculus with 20 samples.

Results

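Implantation transcription factors are the DNA-binding proteins with which the uterine lining prepares for the embryo. The 9 described here are Msx1, Msx2, Gata2, Sox17, Hand2, Nr2f2, Foxa2, Foxo1 and Cebpb, chosen by symbol for their known roles in mouse or human implantation, with earlier results of these data known, out of 45777 genes listed. All 9 were detected above 0 in each of 20 libraries and so were among the 18706 genes tested. Msx1, Gata2 and Hand2 are also named as implantation genes in the study of these libraries and are therefore no independent choice.

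The libraries came from the uteri of wild-type B6D2F1 mice aged 8 to 12 weeks, 5 mice per group with 1 library each, collected at 18:00 on day 3.5 post coitum, with RNA taken from 1 uterine horn. Mice of the control group were untreated. Mice of the IF group, a model of implantation failure, were given RU486 subcutaneously on the morning of day 3.5. RU486 (mifepristone) blocks the progesterone receptor and the glucocorticoid receptor. The PBMC and PBMC-hCG groups received the same RU486 and, on day 1.5, peripheral blood mononuclear cells of non-pregnant females placed in the uterus, which had been cultured without hCG for the PBMC group and with hCG, the hormone chorionic gonadotropin, for the PBMC-hCG group. A group given medium with hCG and no cells was not analysed here, so the cells and the intrauterine injection cannot be told apart. Values are TPM, relative transcript abundances that are corrected for gene length and sum to the same total in each library. The number of reads behind them is unknown.

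Progesterone, acting through its receptor in stroma and epithelium, prepares the uterus for implantation and restrains the growth that estrogen drives in the epithelium. Gata2 and Sox17 act with the progesterone receptor in the epithelium, where Indian hedgehog signals onward to Nr2f2 (COUP-TFII) in the stroma. Hand2, a stromal factor, lowers the production of fibroblast growth factors that carry estrogen's signal to the epithelium. Msx1 and Msx2 are homeobox factors of the receptive phase that restrain Wnt signaling, Foxa2 is required for the uterine glands, and Foxo1 and Cebpb are factors of the invaded epithelium and of decidualization, the conversion of stroma that follows attachment.

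Promoters of 4 factors are printed because Cebpb, Foxo1, Foxa2 and Nr2f2 passed the test in the comparison of IF with control or of PBMC-hCG with IF. Sequences of the 250 bases before the start were matched for 8 of the 9 genes, all but Sox17, and are from RefSeq on GRCm38.p6. Capitals mark CCAAT or its reverse ATTGG, the box bound by the NF-Y complex, and TGACG or its reverse CGTCA, the core bound by factors of the CREB family.
Cebpb, chr2:167688665-167688914, plus strand: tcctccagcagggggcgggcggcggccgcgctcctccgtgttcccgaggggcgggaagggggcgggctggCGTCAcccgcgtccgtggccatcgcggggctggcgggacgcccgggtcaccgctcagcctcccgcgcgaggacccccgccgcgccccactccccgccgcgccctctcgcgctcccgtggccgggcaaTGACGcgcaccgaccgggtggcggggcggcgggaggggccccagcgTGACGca
Foxo1, chr3:52268087-52268336, plus strand: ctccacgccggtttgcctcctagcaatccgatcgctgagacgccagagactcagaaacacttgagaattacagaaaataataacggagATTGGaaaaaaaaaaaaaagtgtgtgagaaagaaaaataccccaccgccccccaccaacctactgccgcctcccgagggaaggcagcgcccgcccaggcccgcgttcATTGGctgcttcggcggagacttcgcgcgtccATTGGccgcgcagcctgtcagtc
Foxa2, chr2:148046970-148047219, minus strand: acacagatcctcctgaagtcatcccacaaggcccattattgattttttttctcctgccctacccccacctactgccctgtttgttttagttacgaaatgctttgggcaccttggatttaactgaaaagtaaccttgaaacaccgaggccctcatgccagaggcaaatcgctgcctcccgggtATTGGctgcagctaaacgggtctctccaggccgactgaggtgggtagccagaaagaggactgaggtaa
Nr2f2, chr7:70366747-70366996, minus strand: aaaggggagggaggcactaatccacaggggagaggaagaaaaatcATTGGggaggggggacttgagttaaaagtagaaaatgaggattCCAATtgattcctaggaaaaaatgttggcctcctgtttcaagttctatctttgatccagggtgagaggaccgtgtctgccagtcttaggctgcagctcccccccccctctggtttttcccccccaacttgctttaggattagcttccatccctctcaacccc

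The Cebpb window held 3 matches to TGACG, at 180, 53 and 7 bases before the start, and none to CCAAT. The Foxo1 window held 3 matches to CCAAT, at 162, 55 and 23 bases before the start, the Nr2f2 window 2 and the Foxa2 window 1. CCAAT was found in 6 of the 8 windows, against 33.8% of 32851 promoter windows of the same length, and TGACG in 3 of the 8, against 17.8%. No match overlapped another, and TATAAA occurred in none of the 8, against 12.4%. AGAACA, the repeated unit of sites for the progesterone and glucocorticoid receptors, occurred in none of the 8 windows and in 16.1% of all windows, and AGGTCA, the repeated unit of sites for the estrogen receptor, in none of the 8 and in 14.0%. A match is a description of these letters and not a site, and its absence says nothing of binding elsewhere. The GC content of the 4 windows was 81.6% for Cebpb, 56% for Foxo1, 50.8% for Foxa2 and 50% for Nr2f2, beside a median of 52.4% over all windows.

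In GRCm38.p6 the other 5 genes are protein-coding genes at chr5:37820491-37824585 (Msx1), chr13:53466881-53472780 (Msx2), chr6:88193891-88207032 (Gata2), chr1:4490928-4497426 (Sox17) and chr8:57320983-57324517 (Hand2).

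Hand2 was the most abundant of the 9, with a mean of 100.1 TPM over the 20 mice, followed by Nr2f2 at 85.4, Sox17 at 71.6, Gata2 at 70.8, Msx1 at 70.6, Cebpb at 62.4 and Foxo1 at 60.8 TPM. Foxa2, at 8.33 TPM, and Msx2, at 2.29 TPM, were an order lower. Gata2 was the steadiest, its highest mouse 1.44-fold above its lowest. Cebpb varied most, 9.19-fold. Genes that define the uterus were present in every group: the summed TPM of Hoxa10, Hoxa11, Hoxa13, Esr1 and Pgr lay between 475.8 and 653.8. Hoxa13 added little, with a mean of 0.263 TPM, and was not above 0 in every library. The sum hides opposite changes. Between IF and control, Esr1 and Pgr were called higher and Hoxa10 and Hoxa11 lower, where 21.9% of all tested genes were called. Of 6 markers of ovary and oviduct, Cyp19a1 was at 0 in all libraries and the other 5 were detected, with a summed level of 18.6 to 42.4 TPM.

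**Figure D1:**
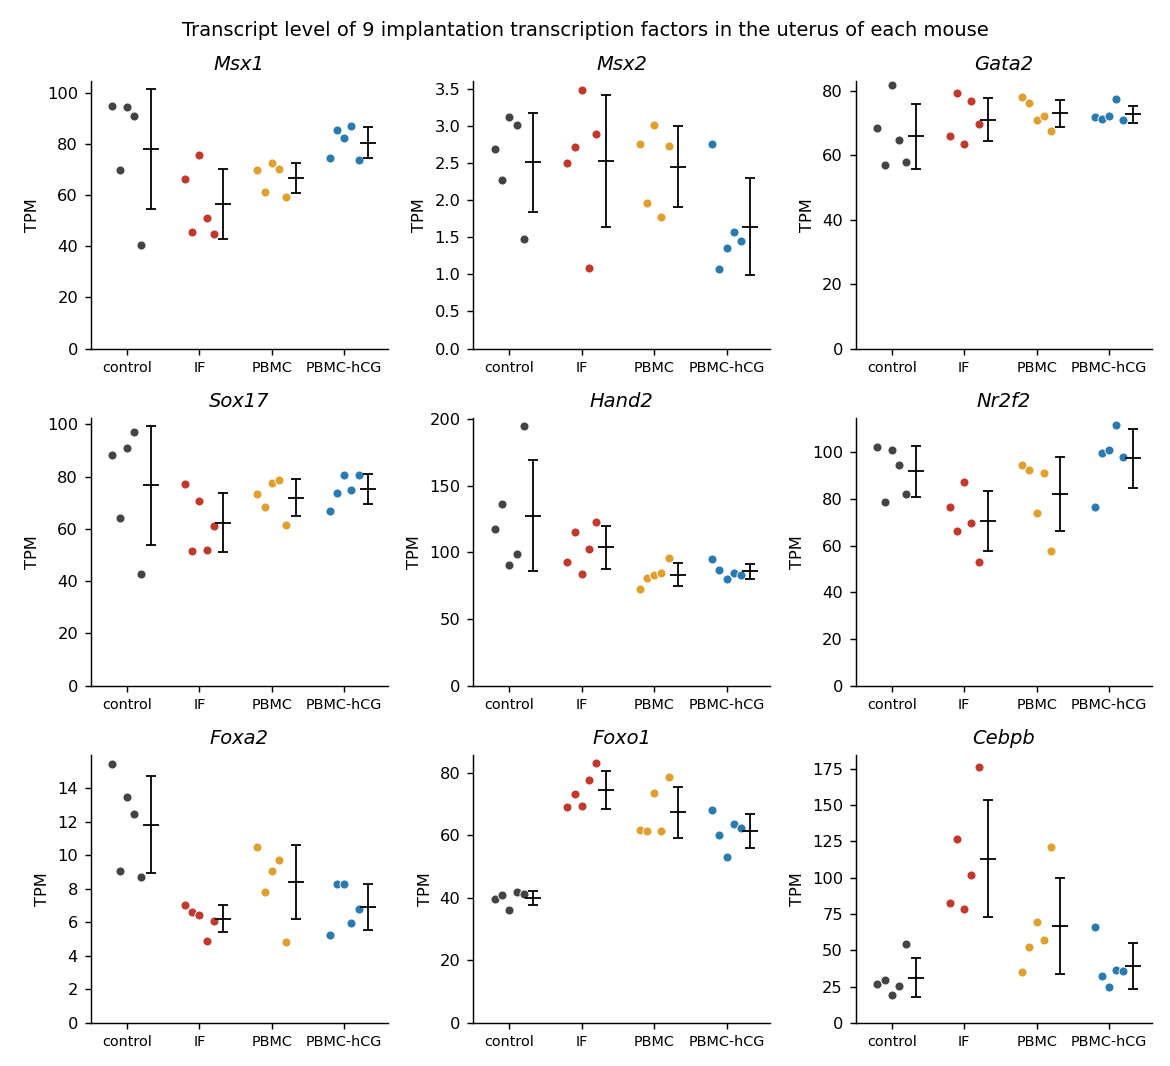
Level of each factor in TPM (linear axis from 0) in the uterus of each of 20 mice, by group, with 1 point per mouse and the group mean ± SD (n = 5) beside the points. Foxo1 and Cebpb in the IF mice lie above all control mice and Foxa2 below them, while Msx1, Sox17 and Hand2 are widest in the control group.

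Between IF and control, Foxo1 had the smallest p of the 9 factors. In the control mice Foxo1 was at 39.5, 40.7, 36.2, 41.9 and 41.3 TPM. In the IF mice it was at 69.2, 73.3, 69.2, 77.7 and 83.2 TPM. No IF mouse overlapped a control mouse, and the log2 difference was 0.90 (SE 0.08), a 1.86-fold rise with a limma adjusted p of 4.15e-07.

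Cebpb showed the largest rise. Its level was 26.5, 29.5, 19.2, 25.3 and 54.0 TPM in the control mice. It was 82.3, 126, 78.2, 102 and 176 TPM in the IF mice. The lowest IF mouse was above the highest control mouse, and the log2 difference was 1.89 (SE 0.33), or 3.71-fold, with an adjusted p of 3.80e-04.

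Foxa2, the gland factor, fell. It stood at 15.4, 9.03, 13.5, 12.4 and 8.72 TPM in the control mice. In the IF mice it stood at 7.01, 6.62, 6.44, 4.87 and 6.10 TPM. Here too the groups did not overlap, with a log2 difference of -0.89 (SE 0.20), 1.86-fold lower, and an adjusted p of 0.00366. These were the 3 of 9 factors called between IF and control, 2 higher and 1 lower, at an adjusted p under 0.05, where 21.9% of all tested genes were called, 13.4% higher and 8.53% lower. The median log2 difference was -0.25 over the 9 factors and 0.02 over all tested genes. The same 3 were those without overlap, against 12.8% of all genes. Cebpb alone met the criteria of differential expression used for these libraries, a fold of at least 2 with a raw p under 0.05, which 4.03% of genes met.

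The other 6 did not pass. Nr2f2 was at 91.8 ± 10.8 TPM (SD, n = 5) in control and 70.5 ± 12.8 in IF mice, a log2 difference of -0.39 (95% interval -0.69 to -0.09) with an adjusted p of 0.0575 that fell to 0.0357 without control replicate 2 and 0.0275 without IF replicate 3. It also passed with the libraries scaled to equal medians (0.0272) and with quantile normalization (0.0482). With each mouse left out in turn, its limma adjusted p reached 0.165, and Nr2f2 did not pass in 8 of these 10 fits. Msx1 was at 78.2 ± 23.4 and 56.7 ± 13.8 TPM, with a log2 difference of -0.43 (95% interval -0.83 to -0.03) and an adjusted p of 0.117. Hand2, Sox17, Gata2 and Msx2 differed by -0.26, -0.25, 0.12 and -0.03 on the log2 scale, with adjusted p-values of 0.252, 0.330, 0.361 and 0.951.

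Control replicates 2 and 5 bear on these values. Control replicate 5 had the lowest Msx1 (40.5 TPM, other controls 70.1 to 94.996), the lowest Sox17 (42.7 TPM, others 64.1 to 97.3), the highest Hand2 (195 TPM, others 90.8 to 136) and the highest Cebpb of its group, and the highest summed myometrial markers of all 5 controls, 11178 TPM against 5960 to 8851. Control replicate 2 was low in stromal markers, with a sum of 5765 TPM against 10121 to 10820 in the other 4. Without control replicate 5, Msx1 (-0.65, adjusted p = 0.00268) and Sox17 (-0.45, adjusted p = 0.0190) were called lower in IF. The count became 5 of 9, where 20.6% of all genes were called in the same fit. Neither Msx1 nor Sox17 was called with any other single mouse left out, where their limma adjusted p reached 0.261 and 0.611. Without both mice, in a fit added after the values were seen, 6 of 9 were called, beside 24.4% of all genes, Nr2f2 (-0.51, adjusted p = 0.0294) being the sixth, Foxa2 also met the fold criterion, and the differences of Hand2 and Gata2 came to 0.01 and -0.01. Foxo1, Cebpb and Foxa2 remained called in every fit that left out a mouse.

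Some markers of other cell types also differed between IF and control, where 13.4% of all genes were called higher and 8.53% lower. The sum of 7 endothelial markers was 400.4 to 497.2 TPM in control and 552.2 to 638.1 TPM in IF mice, with 6 of 7 called higher, and that of 8 leukocyte markers 157.5 to 173.7 and 179.2 to 231.0 TPM, with 2 of the 6 tested called higher. Sums for 8 epithelial markers (718.6 to 1280 and 918.8 to 1269 TPM) and 7 myometrial markers (5960 to 11178 and 5998 to 7480 TPM) overlapped, with 4 of 8 called higher and 1 lower, Cldn3 (-0.95), in the first list and 1 of 7 called lower in the second. Of 7 stromal markers, Dcn (0.84) and Lum (0.88) were called higher, the sums being 5765 to 10820 and 10328 to 12428 TPM, and of the 5 ovary and oviduct markers tested Ovgp1 was called lower (-0.93, adjusted p = 0.0314). Their part in the results for the 9 factors was not tested, and in whole uterus fewer cells of a type and less RNA per cell cannot be told apart.

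Cebpb was lower after PBMC-hCG treatment than in the IF group. The PBMC-hCG mice were at 66.2, 32.2, 24.4, 36.2 and 35.9 TPM, all below the lowest IF mouse at 78.2. The log2 difference to IF was -1.55 (SE 0.33), 2.93-fold lower, with an adjusted p of 0.0258.

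Foxo1 fell less. Its values in the PBMC-hCG mice were 68.0, 60.2, 53.2, 63.7 and 62.3 TPM, again all below the IF mice, of which the lowest was at 69.2, but all above the control mice. The log2 difference to IF was -0.28 (SE 0.08), 1.21-fold lower, with an adjusted p of 0.0368, and that to control was 0.62 (SE 0.08), with an adjusted p of 2.54e-05.

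Nr2f2 rose. The IF mice were at 76.5, 66.2, 87.3, 69.6 and 52.7 TPM, and the PBMC-hCG mice at 76.6, 99.8, 101, 112 and 98.0 TPM. All treated mice but replicate 1 lay above all IF mice, and the log2 difference was 0.47 (SE 0.14), 1.39-fold, with an adjusted p of 0.0407. The 3 called factors, 1 higher and 2 lower, compare with 13.6% of all genes called, 7.61% higher and 5.99% lower, and Cebpb again was the 1 factor past the fold criterion, which 2.31% of genes met. Groups without overlap, as for Cebpb and Foxo1, were found for 7.24% of genes.

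Of the other 6, Msx1 came nearest, with 56.7 ± 13.8 TPM in IF and 80.6 ± 6.19 TPM in PBMC-hCG mice. The log2 difference was 0.54 (SE 0.19), with a limma adjusted p of 0.0623. That p fell to 0.0225 without IF replicate 3, 0.0422 with only these groups fitted and 0.0481 with quantile normalization. With each mouse left out in turn it reached 0.180, and Msx1 passed in 1 of these 10 fits. Msx2 differed by -0.57 (95% interval -1.17 to 0.03), Sox17 by 0.28 (-0.08 to 0.65), Hand2 by -0.26 (-0.58 to 0.06), Foxa2 by 0.14 (-0.28 to 0.56) and Gata2 by 0.04 (-0.14 to 0.21). Whether the 3 called factors passed depended on which mice were included. Without IF replicate 2, 4 or 5 or PBMC-hCG replicate 2, 3, 4 or 5 none of the 9 passed, and between 0% and 0.182% of all genes were called in those fits. The adjusted p of Cebpb then lay as high as 0.0922, while its log2 difference stayed between -1.76 and -1.37 whichever mouse was left out. Cell type markers in the same comparison are set beside 7.61% of all genes called higher and 5.99% lower. Red cell markers had a summed level of 640.0 to 1802 TPM in IF and 341.7 to 878.4 TPM in PBMC-hCG mice, with 2 of 5 called lower. Of 3 mesothelial markers, Msln (0.82) and Upk3b (0.66) were called higher, with sums of 112.1 to 144.5 and 130.4 to 174.4 TPM. Of the endothelial markers 1 was called higher, Emcn (0.29), with sums of 552.2 to 638.1 and 626.4 to 736.7 TPM, as were Krt8 of the epithelial (0.45) and Pdgfra of the stromal markers (0.40). The part of these markers in the result was not tested.

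**Figure D2:**
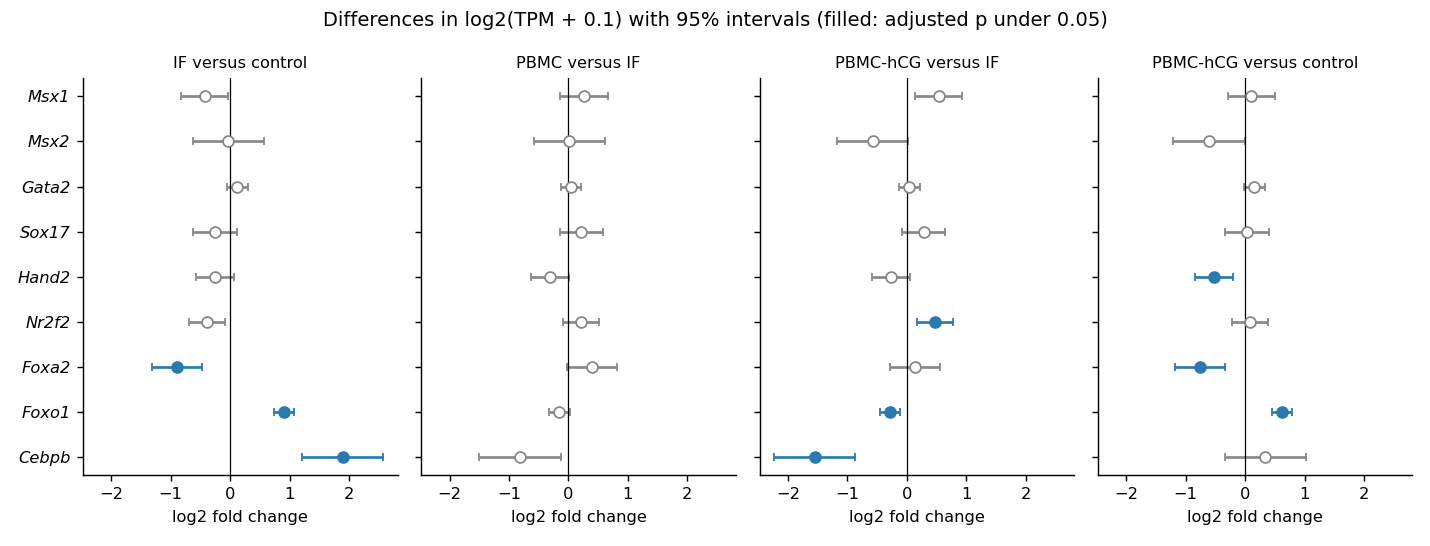
Log2 fold change of each factor, on the log2(TPM + 0.1) scale, with its 95% interval from the limma fit, in 4 comparisons of 5 against 5 mice, with filled points for an adjusted p under 0.05. The comparisons with IF share the IF mice and those with control share the control mice. Cebpb lies at 1.89 for IF versus control and at -1.55 for PBMC-hCG versus IF, and Foxa2 at -0.89 and 0.14.

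PBMC treatment without hCG gave no call against IF, for the 9 factors or for any of the 18706 genes (0%), and 1271 genes (6.79%) had a raw p under 0.05 in limma. Among the 9 factors this held for Cebpb alone, at 34.7, 51.9, 69.1, 56.9 and 121 TPM, with a log2 difference of -0.82 (SE 0.33), a raw p of 0.0216 and an adjusted p of 0.701. By the two-sided exact permutation test, 1 of the 9 was under 0.05 before adjustment, Hand2 (p = 0.0476), at 83.4 ± 8.40 TPM against 103.7 ± 15.9. The share of all genes under 0.05 by that test is not given here. Foxa2 was at 8.39 ± 2.21 TPM against 6.21 ± 0.815, a log2 difference of 0.39 (95% interval -0.03 to 0.81). Nr2f2 was at 82.0 ± 15.8 TPM and differed from IF by 0.21 (95% interval -0.09 to 0.51).

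PBMC-hCG was also set directly against PBMC. None of the 9 factors was called, and 0.0107% of all genes were. Cebpb differed by -0.73 (95% interval -1.42 to -0.05), with a limma adjusted p of 0.294, and was the 1 factor with a raw p under 0.05 in limma, as 16.2% of genes had. Msx2 differed by -0.59 (-1.19 to 0.01, adjusted p = 0.313) and Nr2f2 by 0.26 (-0.04 to 0.56, adjusted p = 0.352). Msx1 was at 69.9, 61.3, 72.6, 70.2 and 59.5 TPM in the PBMC mice and at 74.7, 85.5, 82.4, 87.1 and 73.6 TPM in the PBMC-hCG mice. The groups did not overlap, as for 3.46% of all genes, and the two-sided exact p was 0.00794, the smallest that 252 arrangements allow, but the adjusted p in limma was 0.438 (log2 difference 0.27). A difference between cells cultured with and without hCG was therefore not shown for any of the 9 after adjustment.

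Set against the untreated mice, each PBMC group had 3 of 9 factors called, where 19.5% of all genes were called for PBMC and 31.8% for PBMC-hCG. Groups without overlap were found for 12.7% and 18.3% of genes. Foxo1 was higher in both, without overlap, by 0.75 (SE 0.08, adjusted p = 4.07e-06) in PBMC and by 0.62 in PBMC-hCG. Cebpb was higher in PBMC by 1.07 (SE 0.33, adjusted p = 0.0258), a call lost without control replicate 1, 3 or 4 or PBMC replicate 3 or 5 and the 1 factor past the fold criterion there (3.34% of genes), and in PBMC-hCG it differed by 0.34 (95% interval -0.34 to 1.03, adjusted p = 0.450). Foxa2 was lower in PBMC-hCG, without overlap, by -0.75 (SE 0.20, adjusted p = 0.00841), with 5.23, 8.30, 8.30, 5.96 and 6.77 TPM. In PBMC, Foxa2 differed by -0.50 (adjusted p = 0.0905, or 0.0477 without control replicate 2 and up to 0.223 without another mouse). Gata2 differed from control by 0.16 in PBMC and 0.15 in PBMC-hCG (adjusted p = 0.208 and 0.171). Both passed without control replicate 3 (0.0285 and 0.0210) but in no fit without another single mouse (up to 0.412 and 0.371). Msx2 differed by -0.61 in PBMC-hCG (adjusted p = 0.114). It passed without PBMC-hCG replicate 1 (0.0357) but in no fit without another single mouse (up to 0.251). Without control replicates 2 and 5, Msx1 (-0.49, adjusted p = 0.0177), Sox17 (-0.36, adjusted p = 0.0368) and Foxa2 (-0.75, adjusted p = 0.0178) were called lower in PBMC, which made 5 of 9 beside 20.7% of all genes in the same fit, and Msx2 (-0.87, adjusted p = 0.0423) was called lower in PBMC-hCG.

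Hand2 was called lower than control in both PBMC groups. It was at 117, 136, 90.8, 99.0 and 195 TPM in the control mice. It was at 72.2, 81.0, 83.2, 84.7 and 95.6 TPM after PBMC and at 95.1, 86.4, 80.02, 84.2 and 83.1 TPM after PBMC-hCG. The upper mice of both treated groups reached into the control range, and the log2 differences were -0.57 (SE 0.15, adjusted p = 0.0134) and -0.52 (SE 0.15, adjusted p = 0.0147). Both calls were lost without control replicates 2 and 5, at -0.29 (adjusted p = 0.0792) and -0.25 (adjusted p = 0.103). In the PBMC-hCG mice, 5 of 7 myometrial markers were called lower than control (summed level 4853 to 6097 TPM) and all 7 endothelial markers higher (626.4 to 736.7 TPM). Of all genes 31.8% were called in that comparison, and the part of these markers in the result was not tested.

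**Figure D3:**
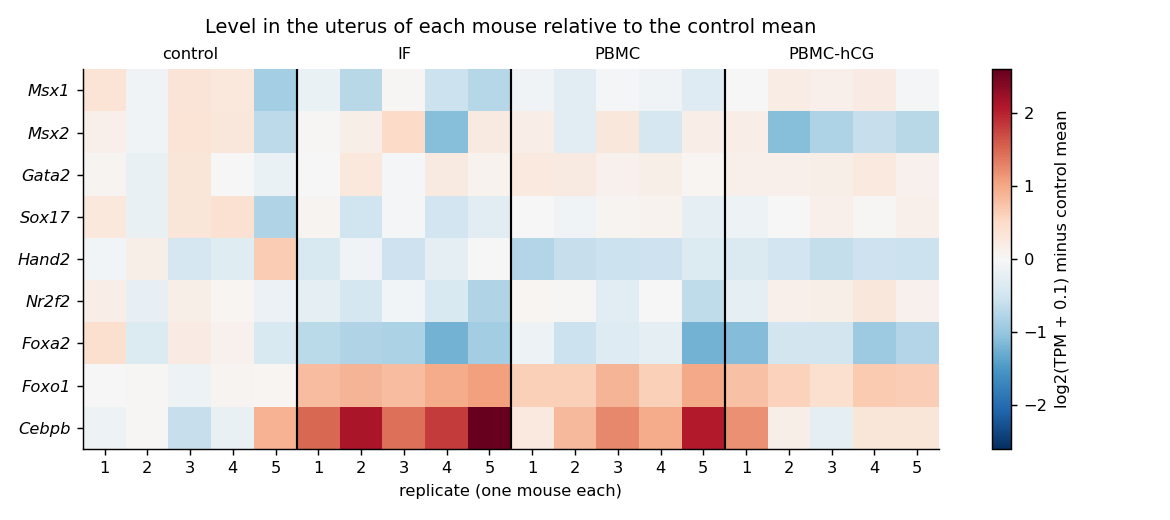
Log2(TPM + 0.1) of each factor in each mouse minus the control mean (colour scale, red above and blue below), with mice in columns by group and replicate number. Foxo1 is above the control mean in all 15 mice given RU486, and Cebpb is highest in IF replicate 5, at 176 TPM.

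The order of the 4 groups differed from factor to factor. Ranked by mean, Cebpb and Foxo1 ran IF, PBMC, PBMC-hCG, control, from high to low, whereas Msx1 and Nr2f2 ran PBMC-hCG, control, PBMC, IF. Of the 27 steps between neighbouring groups in these orders, 1 was both called and free of overlap, that of Foxo1 between PBMC-hCG and control. The other neighbouring steps were not both called and free of overlap, while groups further apart in an order could differ, as IF and control did for Cebpb. The median coefficient of variation over the 9 factors was 26.5% in the control (15.3% without control replicate 5), 18.1% in the IF, 12.2% in the PBMC and 8.86% in the PBMC-hCG group, and no difference in spread was tested.

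Within groups, some pairs of factors varied together or in opposite directions from mouse to mouse. Correlations were taken over the deviations of the 20 mice from their group means on the log2 scale, and are descriptions, since the values come from the same libraries and share one total per library. Cebpb rose with Foxo1 (r = 0.83, rho = 0.80) and with Hand2 (r = 0.82, rho = 0.89). It ran against Nr2f2 (r = -0.85, rho = -0.80) and Foxa2 (r = -0.73, rho = -0.71). Msx1 and Sox17 moved together (r = 0.90, rho = 0.82), and both ran against Hand2 (r = -0.90 and -0.87). Msx1 with Sox17 stayed at 0.83 without the 2 mice farthest from the median in Msx1. Cebpb with Hand2 stayed at 0.80 without the 2 mice farthest from the median in Hand2. Of the 36 pairs, 9 were above 0.5 and 10 below -0.5. The share among other pairs of genes was not computed, so these counts are not shown to be particular to the 9 factors.

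**Figure D4:**
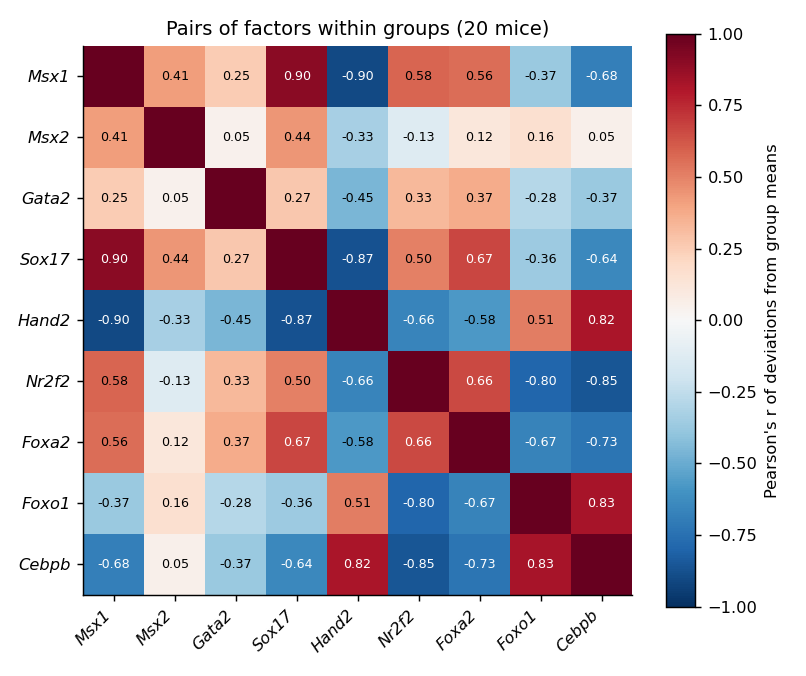
Pearson's r between each pair of factors, computed over the deviations of 20 mice from their group means in log2(TPM + 0.1), with red for positive and blue for negative r. Msx1, Sox17, Nr2f2 and Foxa2 are positively related to each other and negatively to Hand2 and Cebpb.

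The mice with the highest Cebpb of their groups show the same values without a coefficient, and are no separate evidence. These were control replicate 5, IF replicate 5, PBMC replicate 5 and PBMC-hCG replicate 1. In all 4 groups that mouse also had the highest Hand2, and in 3 of 4 the highest Foxo1. It had the lowest Msx1, Sox17, Nr2f2 and Foxa2 of its group in 3 of 4 groups each. Msx2 and Gata2 did not follow: Msx2 was highest in 1 group and lowest in 1, and Gata2 lowest in 1. The same mice had the highest sum of myometrial markers and the lowest sums of epithelial, of endothelial and of uterine identity genes in 3 of 4 groups each. PBMC replicate 5 went the other way, with the highest epithelial sum of its group, 1254 TPM. Its myometrial sum, 6289 TPM, lay inside its group's range of 5849 to 7199. The part of these cell types in the pattern was not tested. Over all 20 mice without regard to group, r between Hand2 and Cebpb was 0.19. The mean of Hand2 was highest in the control group, where that of Cebpb was lowest, but Hand2 was not called between IF and control (adjusted p = 0.252).

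**Figure D5:**
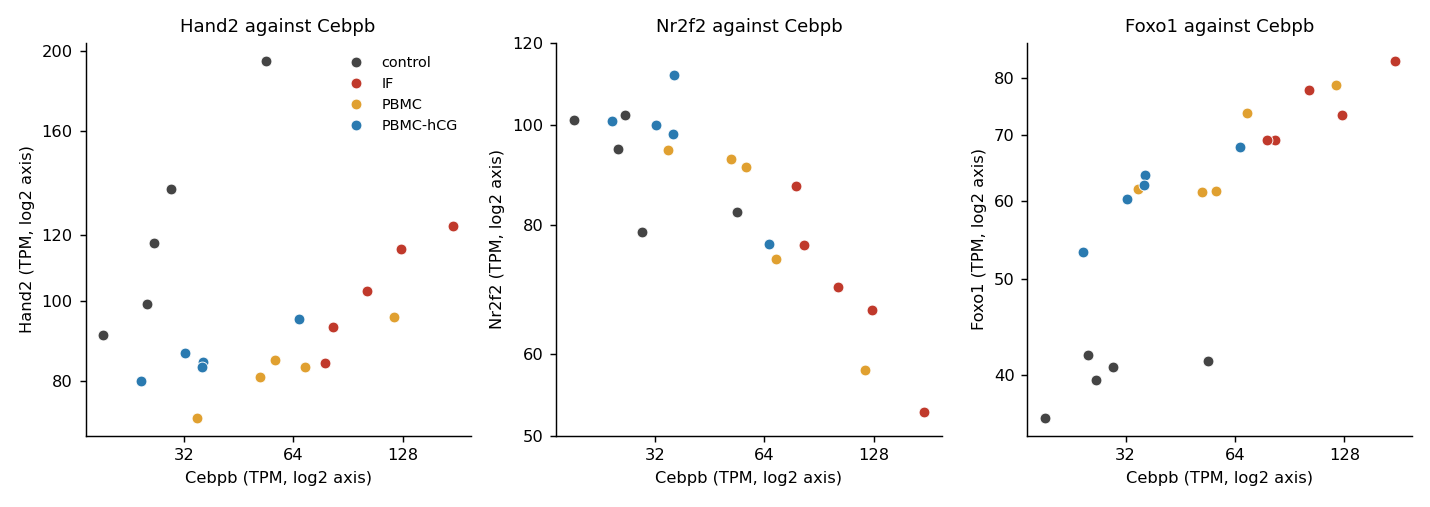
Hand2, Nr2f2 and Foxo1 against Cebpb, in TPM on log2 axes, with 1 point per mouse coloured by group. Hand2 tends to rise with Cebpb within groups and Nr2f2 to fall.

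The genes whose pattern over the 20 mice was most like that of each factor were sought among 15770 genes of at least 1 TPM on average. The closest of so many genes are a description, and these r take in the differences between groups. Foxo1 was closest to Dio2, which activates thyroid hormone (r = 0.98), the T-box factor Tbx3 (r = 0.98) and the growth factor Nrg1 (r = 0.98). Over the deviations from group means, r for these genes was 0.82, 0.80 and 0.74. Dio2 ran from 22.2 ± 5.41 TPM in control to 282 ± 57.7 in IF, 217 ± 93.3 in PBMC and 150.4 ± 63.6 in PBMC-hCG mice. Cebpb was closest to Plau, the urokinase protease (r = 0.98), at 24.6 ± 5.51, 68.3 ± 18.3, 44.9 ± 16.5 and 28.3 ± 6.12 TPM in the same order, and to Nab2 and Bhlhe40 (both r = 0.96). Nr2f2 was closest to Edn3 (r = 0.95), the endothelin ligand, then Zkscan16 (r = 0.95) and Ndrg3 (r = 0.94), and Foxa2 to Ctf1, Cuta and Jmjd8 (r = 0.87 to 0.89).

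Msx1 was most like St6gal1, Naip6 and Fcsk (r = 0.91 each), and Sox17 was most like Msx1 itself (r = 0.89), then Fcsk (r = 0.88) and Zfp1 (r = 0.86). Hand2 was closest to Cnih4 (r = 0.91), Ppif (r = 0.89) and Ddost (r = 0.86). Gata2 (1110065P20Rik, Nck2 and Mpp1, r = 0.78 to 0.82) and Msx2 (Sprr2g, LOC115487269 and Secisbp2, r = 0.73 to 0.77) had no partner as close.

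Genes that lie against the factors were looked up because counting without strand could mix them. Hand2os1 overlaps Hand2 on the other strand and stood at 89.4 ± 25.3, 82.1 ± 15.7, 74.6 ± 11.6 and 89.3 ± 7.73 TPM in control, IF, PBMC and PBMC-hCG mice, and was called in no comparison. B130024G19Rik overlaps Nr2f2 and was called in the same direction as Nr2f2 in PBMC-hCG versus IF (log2 difference 1.31, SE 0.36, adjusted p = 0.0335). Tmem189 overlaps Cebpb and moved in the same directions as Cebpb, by 0.32 in IF versus control (adjusted p = 0.00700) and by -0.31 in PBMC-hCG versus IF (adjusted p = 0.0292). The kit keeps strand, but the strand setting of the counting is not given in the sources used here, so reads of each pair may be shared.

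Relatives of the factors were counted in the same way. Of 22 genes of the same families, 17 were tested, and Sox18 (77.0 ± 17.0 to 118 ± 11.5 TPM, log2 difference 0.64), Cebpa (0.30) and Foxo6 (-0.80) were called between control and IF, 3 of 17 beside 21.9% of all genes. Msx3, Hand1 and Foxa1 were at 0 in all libraries, and Gata4 and Foxa3 did not exceed 0.126 and 0.217 TPM. In PBMC-hCG versus IF, Cebpd (-0.85) and Nr2f6 (-0.22) were called lower and no relative higher, 2 of 17 beside 13.6% of all genes.

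Pathway neighbours were counted by list, with 21.9% of all genes called and a median log2 difference of 0.02 as the background. Some genes, such as Pgr, Hoxa11 and Wnt4, belong to several lists, so the counts of different lists are not independent. Of 21 other uterine factors, 8 were called higher and 5 lower in IF than in control (median 0.23): Pgr, the progesterone receptor, rose from 45.9 ± 6.49 to 150 ± 16.2 TPM, Zbtb16 fell from 36.2 ± 5.999 to 2.42 ± 1.16 TPM and Hoxa11 fell by 1.09 on the log2 scale. Of 11 genes of the progesterone receptor and hedgehog axis, 2 rose and 3 fell (median -0.01), Gli2 by 0.60 and Il13ra2 by -4.20. Of 12 Wnt, Bmp and adhesion genes linked to Msx1 and Msx2, 7 rose and none fell (median log2 difference 0.64), and Wnt4, a decidual Wnt ligand, went from 4.90 ± 1.41 to 25.5 ± 11.8 TPM, with Wnt7a (0.90) and Wnt5a (0.75). Of 10 genes linked to Hand2, namely FGF ligands and receptors, Frs2 and Muc1, 4 rose and 1 fell (median 0.30), with Fgfr3 at 1.06, Fgf18 at 1.01 and Fgfr1 at 0.58. Of 10 decidualization genes tested, 4 rose and 3 fell (median 0.66), Gadd45a by 0.69 and Hoxa10 by -0.92.

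Of 5 gland genes linked to Foxa2, none was called in IF versus control by limma, and none had a raw p or an exact permutation p under 0.05. Lif, the gland cytokine of implantation, was at 11.9 ± 9.503 and 4.92 ± 1.71 TPM (log2 difference -0.62, adjusted p = 0.555), and the gland proteases Prss28 and Prss29 varied over mice by more than their group differences (adjusted p = 0.522 and 0.687). In PBMC-hCG versus IF, 7.61% of all genes were called higher and 5.99% lower (median log2 difference 0.05). The lists gave 3 higher and 4 lower of 21 other uterine factors, 1 and 2 of 12 of the Msx list and 2 and 3 of 10 of the Hand2 list. The decidual list gave 2 and 5 of 10. Among these, Wnt4 fell by 1.39 and Fgfr3 by 0.86 on the log2 scale. None was called of 11 of the progesterone receptor and hedgehog axis or of 5 of the gland list. A raw p under 0.05 was found for 4 of the 11 in limma and 2 in the exact test. For the gland list these counts were 0 and 1. The share of all genes under 0.05 by these tests is not given here, so the raw counts have no background beside them.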

How the data were processed

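RNA-seq of the uterus of 20 mice was used, 5 per group. According to the methods and the submitters' processing notes, reads were trimmed with Trimmomatic, aligned to mm10 with HISAT2 and assembled with StringTie. The authors deposited TPM, whose totals of 999989 to 999999 per library leave depth unknown, so no counting error is given. The authors normalized counts by TMM and tested them with the edgeR exact test, which TPM does not allow. Here log2(TPM + 0.1) was compared with limma 3.58.1 (R 4.3.3, variance trend, all 4 groups in 1 fit) over the 18706 genes above 0 in every library, with Benjamini-Hochberg adjustment over all of them. Fold changes are on that scale, which understates those of low genes. The two-sided exact permutation test used 252 arrangements. The method was checked on simulated data in which each gene varied independently, so the check does not cover mice that deviate over many genes at once. Each library is from a different mouse, and no batch is named. The members and lists were chosen with earlier results of these data known. Genes named outside the 9 were, per list, up to 3 with the smallest adjusted p in IF versus control at 1 TPM or more, the 3 most correlated genes per factor and overlapping neighbours, and called relatives in PBMC-hCG versus IF were added after their values were seen. Alternatives were other pseudocounts, filters, scalings and fits, the replicate number as a block and each mouse left out. Promoters and positions are from RefSeq GRCm38.p6.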

Additional observations from a re-analysis of the deposited data

Results flagged for a closer look

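In each group of 5, the gap between the highest or lowest mouse and the nearest other was compared with the group's range by Dixon's criterion. Of 36 groups (9 factors in 4 groups), 2 passed, and chance passes about 1 in 20. PBMC-hCG replicate 1 had Cebpb at 66.2 TPM, where the other 4 mice lay between 24.4 and 36.2 TPM. PBMC-hCG replicate 4 had Gata2 at 77.5 TPM, where the others lay between 71.0 and 72.2 TPM. Without PBMC-hCG replicate 1 the log2 difference of Cebpb from IF was -1.76 (limma adjusted p = 0.00563).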

How the results depend on the processing

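Depth is unknown from TPM and limits what can be said of Msx2. The number of factors called in IF versus control was 5 with the replicate block, where 22.2% of all genes were called. It was 3 to 5 with a mouse left out, beside 17.7% to 26.7% of all genes. Without control replicates 2 and 5 (added) it was 6, beside 24.4% of all genes, and 2 met the fold criterion. Past the fold criterion in PBMC versus IF were 0 to 1 with a mouse left out (1 without PBMC replicate 5). In PBMC-hCG versus IF the called number was 1 (Cebpb) without the filter on low values, beside 2.65% of all genes. It was 0 to 4 with a mouse left out, beside 0% to 27% of all genes. In PBMC versus control the called number was 1 (Foxo1) with only these groups fitted, beside 13.5% of all genes. It was 2 to 4 with a mouse left out (15.8% to 24.7%) and 5 without control replicates 2 and 5 (20.7%). Those past the fold criterion were 0 to 1 with a mouse left out (0 without control replicate 3 or PBMC replicate 5). In PBMC-hCG versus control 1 met that criterion without control replicates 2 and 5. The share of all genes past the fold criterion in these fits was not computed. By exact tests adjusted over all genes, where no raw p can be below 0.00794, Foxo1 and Foxa2 in PBMC-hCG versus control passed (0.0433 each). The other calls were lost, the smallest adjusted p being 0.0619 in IF versus control, 0.0624 in PBMC versus control and 0.0996 in PBMC-hCG versus IF.

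The labels do not say whether replicate numbers pair the mice. Over 30 same-number pairs r lay between -0.25 and 0.46 (median -0.01), and 8 were above 0.1. Of these 3 were between the mice numbered 5 of the control, IF and PBMC groups (0.27 to 0.46), the mice with the highest Cebpb of their groups. The block added Nr2f2 (adjusted p = 0.0409) and Msx1 (0.0463) in IF versus control and Msx1 (0.0272) in PBMC-hCG versus IF. Over all genes it moved the calls from 4104 to 4153 and from 2544 to 3215 in these comparisons.

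Signs changed for some differences, none of them called. Msx2 in PBMC versus IF was -0.00492 with a pseudocount of 1, -0.0415 with quantile normalization, -0.0147 with equal medians, and -0.251 to 0.149 with a mouse left out. Gata2 was -0.0230 with equal medians in PBMC-hCG versus IF (-0.00104 to 0.0791 with a mouse left out) and 0.0225 with quantile normalization in PBMC-hCG versus PBMC (-0.0311 to 0.0215). Sox17 in PBMC-hCG versus control was -0.0347 with equal medians (-0.16 to 0.13). With a mouse left out the ranges were -0.21 to 0.23 for Msx2 in IF versus control, -0.00571 to 0.0954 for Hand2 in PBMC-hCG versus PBMC, -0.190 to 0.0861 for Msx2 and -0.233 to 0.0632 for Sox17 in PBMC versus control, and -0.11 to 0.19 for Msx1 in PBMC-hCG versus control. Without control replicates 2 and 5, Gata2 was -0.00996 and Hand2 0.0123 in IF versus control, against 0.12 and -0.26 with all mice. Msx1 was -0.22, Sox17 -0.30 and Nr2f2 -0.0384 in PBMC-hCG versus control, against 0.11, 0.03 and 0.08 with all mice. The causes were not tested.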
